A study of Mus musculus with 18 samples.

Results

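Unirradiated bone marrow of 8-week-old mice was compared with that of 1-week-old mice, using the 6 unirradiated arrays of a set of 18. Members were taken by their sample labels, 3 arrays at each age and 1 female C3H mouse per array per the labels; both groups received no radiation. The other 12 arrays hold marrow of the same strain, sex and ages from mice given 2 Gy of gamma rays and sampled 6 h or 24 h later, and serve here as a second look at the age difference in other mice. Total marrow RNA was labelled with Cy3 and hybridised to one-colour Agilent mouse arrays. The labels name whole marrow with no cell sort, so each value is a mean over all cells and matrix-bound tissue that came out with the marrow, and fewer cells of a type cannot be told apart from less RNA per cell. The labels do not say how the marrow was taken from bones that differ in size between the ages. By the file headers the 1-week arrays lay on slides 1, 2 and 3 and the 8-week arrays on slides 3, 4 and 5. The ages thus shared 1 slide, and slide and age cannot be fully told apart.

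Blood formation in the mouse moves from the fetal liver to the bone marrow around birth. Marrow of the first weeks lies in bone that is still being built from cartilage, and its stem cells divide often and use growth regulators of the fetal type. In the adult the marrow also stores neutrophils and houses recirculating B cells, long-lived plasma cells, T cells and natural killer (NK) cells. The study as a whole asked how age shapes the response of marrow to radiation, and the unirradiated arrays give the state from which each age started.

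Values are log2 signals minus the array's 75th percentile over non-control probes, so 0 lies at that percentile, and levels of different genes are not compared. Values in a row are in the order of replicates 1, 2 and 3. Differences are 8 weeks minus 1 week with the standard error (SE) of the limma fit, and each adjusted p takes in all 11884 genes that were tested. A probe not well above background on any array of a group has only a bound there. Its change is then given as at least N-fold, the brighter group's mean over the detection floor. That floor is the lowest signal of any probe well above background on the array, and dimmer signals were raised to it. Undetected probes can lie above the floor, so the bound is approximate. Over all probes, 1-week replicates 1 and 3 correlated at r = 0.988 and the 8-week replicates at 0.986 to 0.987, while 1-week replicate 2 reached 0.978 and 0.979 with the others of its group. That array stood apart through tissue transcripts. The mean of 24 skeletal muscle genes was -1.51, 4.25 and -0.81 in the 1-week arrays and -2.58, -3.50 and -0.91 in the 8-week arrays, and that of 8 cartilage genes was -2.89, 3.03 and -2.17 against -4.48, -4.77 and -4.68. The calls of the unirradiated comparison were therefore made with and without 1-week replicate 2. The words "rose" and "fell" are used only of genes with adjusted p under 0.05 both ways. Counts of genes whose arrays do not overlap, and of age differences that change with irradiation, were made with all arrays only. The Y-linked genes Ddx3y, Eif2s3y, Kdm5d and Uty were above background on none of the 6 arrays, all labelled female.

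Of the 11884 genes, 7711 (64.9%) had adjusted p under 0.05 with all arrays, 3258 (27.4%) higher and 4453 (37.5%) lower at 8 weeks. Without 1-week replicate 2 the count was 7346 (61.8%). Both ways, 7104 genes (59.8%) were called, of which 2903 (24.4%) rose and 4201 (35.4%) fell, and none changed direction. Among them 1548 differed at least 2-fold, 593 upward and 955 downward. The arrays of the 2 ages did not overlap for 8301 genes (69.9%), higher at 8 weeks for 29.5% of genes and lower for 40.4%. Most tested genes thus differed between the ages, with a median difference of -0.09, and counts in gene lists are read against these shares. In the irradiated arrays, which come from other mice, 7637 genes (64.3%) differed between the ages at 6 h and 7282 (61.3%) at 24 h. All arrays were fitted in the same limma model, so each comparison's SE draws on irradiated and unirradiated arrays alike. Upward calls made up 28.2% of genes at 6 h and 33.5% at 24 h, and downward calls 36% and 27.7%. Of the 7104 genes, 5568 were called the same way at 6 h and 114 the opposite way, and 4434 and 502 at 24 h. Because the variance estimate of each gene is shared, these counts are not an independent replication of the calls.

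**Figure D1:**
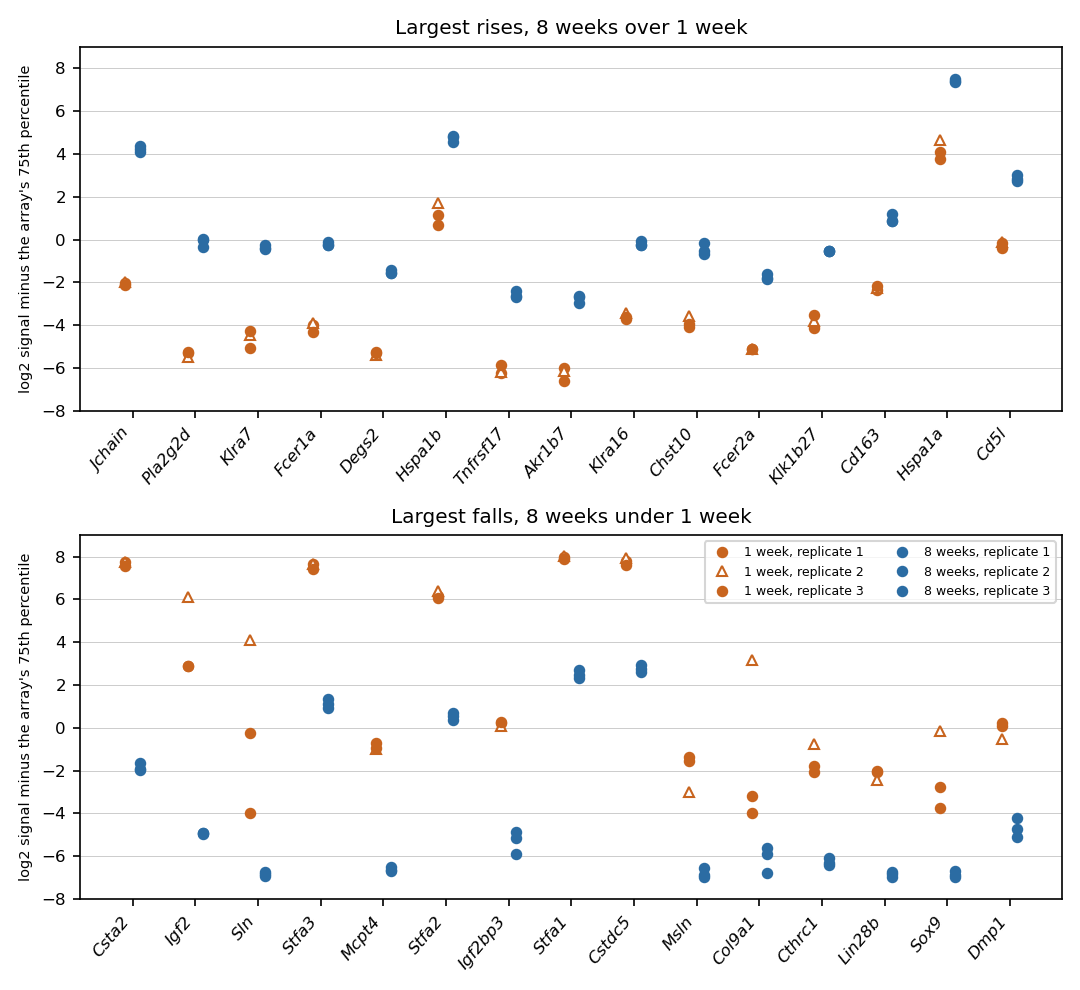
The 15 largest rises and 15 largest falls from 1 to 8 weeks of age among named genes called with and without 1-week replicate 2, with each point 1 array (log2 signal minus the array's 75th percentile) and open triangles marking 1-week replicate 2. The 3 arrays of each age lie apart for every gene shown, and replicate 2 lies far above the other 1-week arrays for the tissue genes Sln, Col9a1 and Sox9 and for Igf2.

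The largest fall among genes above background at both ages belonged to a block of neighbouring genes for cystatin A-type proteins, the stefins, which inhibit cysteine cathepsins inside cells. RefSeq places 11 genes with such names side by side on mouse chromosome 16, of which 9 were tested, and all 9 fell. Csta2 had levels of 7.75, 7.74 and 7.56 in the 1-week and -1.96, -1.64 and -1.90 in the 8-week arrays, a difference of -9.52 ± 0.24 (adjusted p = 1.42e-14) or 734-fold. Stfa3 had levels of 7.63, 7.65 and 7.42 in the 1-week and 0.94, 1.34 and 1.10 in the 8-week arrays, a difference of -6.44 ± 0.12. The pups lay close together and far above the adults for both genes. The remaining differences were -5.66 ± 0.12 for Stfa2, -5.45 ± 0.11 for Stfa1, -5.01 ± 0.13 for Cstdc5, -4.61 ± 0.10 for Stfa2l1, -4.34 ± 0.11 for Cstdc4 and -4.06 ± 0.09 for Csta1. Cstdc3, not well above background at 8 weeks, was at least 1.4-fold lower there. Without 1-week replicate 2 the differences barely moved, for Csta2 to -9.49 and Stfa3 to -6.40. Between the ages of irradiated mice Csta2 differed by -8.80 at 6 h and -8.43 at 24 h, and Stfa3 by -5.90 and -5.52. The 5 measured genes just beside the block, Parp9, Kpna1, Wdr5b, Fam162a and Ccdc58, all on 1 side of it, differed by -0.37 to 0.16. Of these 3 fell, Kpna1 by 0.35, Fam162a by 0.37 and Ccdc58 by 0.36. The stefin genes are near copies of each other, so their probes may share transcript and the levels of single members are uncertain.

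The promoters of the block are shown because its genes fell together. These are the 150 bases before the RefSeq start site (GRCm38.p6, gene strand, 5′ to 3′), with ACCTTTAAAACCC in capitals, the longest run of letters that the first 5 share, picked after they were seen and then searched on both strands of all promoters.
Stfa1, chr16:36276998-36277147 (plus strand): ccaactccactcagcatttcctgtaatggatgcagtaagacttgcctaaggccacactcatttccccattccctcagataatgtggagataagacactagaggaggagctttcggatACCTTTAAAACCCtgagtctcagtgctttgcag
Stfa2, chr16:36408364-36408513 (minus strand): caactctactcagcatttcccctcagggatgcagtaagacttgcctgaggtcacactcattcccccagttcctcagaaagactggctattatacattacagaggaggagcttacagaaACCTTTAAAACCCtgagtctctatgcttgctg
Stfa3, chr16:36455393-36455542 (minus strand): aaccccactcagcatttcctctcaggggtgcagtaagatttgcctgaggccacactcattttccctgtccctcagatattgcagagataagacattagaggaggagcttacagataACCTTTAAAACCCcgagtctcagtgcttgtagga
Stfa2l1, chr16:36156661-36156810 (plus strand): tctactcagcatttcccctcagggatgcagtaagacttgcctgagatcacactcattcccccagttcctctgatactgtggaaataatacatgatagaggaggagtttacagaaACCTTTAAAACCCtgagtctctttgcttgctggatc
Cstdc4, chr16:36184062-36184211 (plus strand): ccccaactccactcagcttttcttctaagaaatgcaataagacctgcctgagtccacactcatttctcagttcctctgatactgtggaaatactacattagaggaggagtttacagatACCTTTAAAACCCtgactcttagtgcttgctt
Csta2, chr16:36221412-36221561 (plus strand): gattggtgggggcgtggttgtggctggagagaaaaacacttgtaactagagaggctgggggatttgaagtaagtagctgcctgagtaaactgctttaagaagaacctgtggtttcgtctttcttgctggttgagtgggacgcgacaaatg
The first 5 were 76.8 to 86.4% identical to each other in pairwise alignments, and the run starts at 32 to 36 bases before the start site in all 5, by its choice. Csta2 was 45.3 to 48.4% identical to them and does not hold those letters in this window. Csta1, which also fell, does not hold them in its window. The window of Cstdc5, which fell too, ends at the start site with the first 12 of the 13 letters, so it cuts the run off and does not show whether the last letter follows. Across 32851 promoter windows of that length 8 (0.0244%) hold the run, all 8 on chromosome 16, and 7 of those belong to stefin genes by name.

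**Figure D2:**
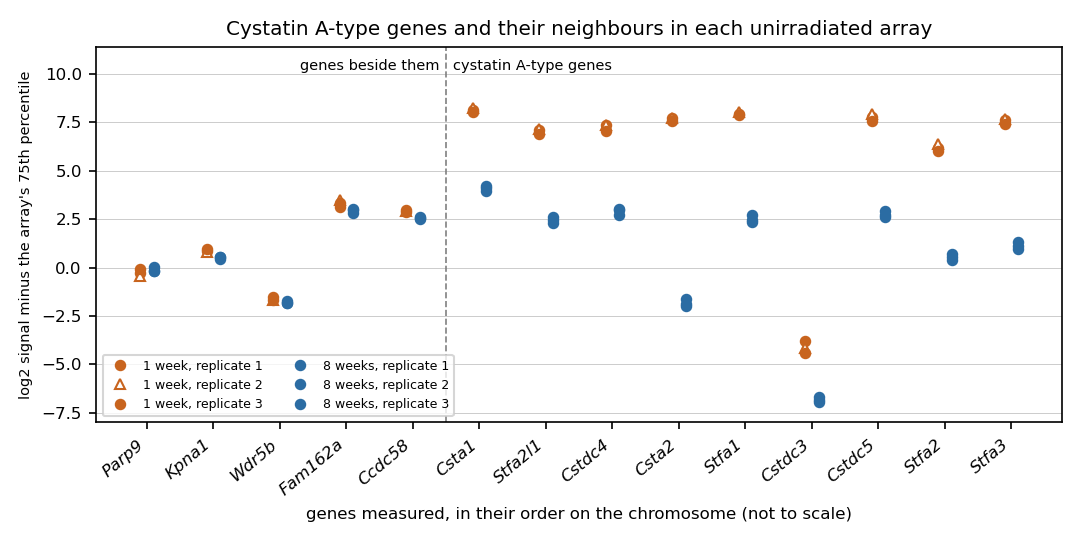
Levels of the 9 cystatin A-type genes tested and of the 5 measured genes beside them, in chromosome order, with each point 1 unirradiated array (log2 signal minus the array's 75th percentile). All 9 lie lower at 8 weeks, while the genes beside them, all on 1 side, differ by -0.37 to 0.16, 3 of the 5 with adjusted p under 0.05.

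Genes of the fetal growth programme also held very large falls. Of 30 imprinted growth genes listed, 17 were tested, and 12 fell while 2 rose, with a median difference of -1.86 (-1.42 without 1-week replicate 2). Igf2, the fetal insulin-like growth factor, had levels of 2.88, 6.09 and 2.90 in the 1-week and -4.98, -4.92 and -4.92 in the 8-week arrays. It was at least 377-fold lower at 8 weeks (adjusted p = 3.48e-09), and at least 180.0-fold lower without replicate 2, the highest pup. Mest, a maternally imprinted hydrolase gene, had levels of 1.61, 2.39 and 1.56 in the 1-week and -1.25, -1.29 and -1.33 in the 8-week arrays and a difference of -3.15 ± 0.18. Grb10, an adaptor that dampens insulin and IGF receptor signals, had levels of 1.65, 2.37 and 1.69 in the 1-week and -0.54, -0.79 and -0.68 in the 8-week arrays and a difference of -2.57 ± 0.14. In all of these the 1-week arrays lay above every 8-week array, with replicate 2 highest. The cell-cycle inhibitor Cdkn1c fell by 3.56 (-2.65 without replicate 2) and the zinc finger gene Plagl1 by 2.71 (-2.27). Peg3 was at least 4.72-fold, Asb4 at least 5.58-fold and Dlk1 at least 6.24-fold lower at 8 weeks, where none was above background, and without replicate 2 the bounds were 2.65-fold, 4.88-fold and 1.79-fold. Peg12 fell by 1.30, Ndn by 1.86, Sgce by 0.56 and Ppp1r9a by 0.40. Against the rest, Phlda2 rose, with levels of -5.72, -2.87 and -4.60 in the 1-week and -2.42, -2.58 and -2.36 in the 8-week arrays, the replicate 2 value lying nearest to the adult ones, and so did Gatm, the first enzyme of creatine synthesis, by 0.57 ± 0.14, though its arrays overlapped. Igf2r differed by -0.20 ± 0.06 and did not pass without replicate 2, and Gnas (0.06 ± 0.09) and Impact (0.01 ± 0.08) did not pass. Since replicate 2 is high both for these genes and for muscle and cartilage transcript, the part of those tissues in the list's change was not tested beyond the values without it.

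A list drawn up around fetal-type RNA-binding and chromatin genes also held more falls than rises. Lin28b, an RNA-binding protein that blocks maturation of let-7 microRNAs and is used by fetal stem cells, had levels of -2.07, -2.43 and -2.03 in the 1-week and -6.75, -6.96 and -6.84 in the 8-week arrays and was at least 5.38-fold lower in the adult (adjusted p = 1.78e-10). Igf2bp3, a fetal RNA-binding protein, had levels of 0.25, 0.08 and 0.28 in the 1-week and -5.14, -5.89 and -4.87 in the 8-week arrays and was at least 28-fold lower. Hmga2, a chromatin protein and let-7 target, fell by 2.11 ± 0.16. Replicate 2 was the lowest pup for each of these 3 genes. Sox17, which fetal stem cells share with endothelium, was at least 4.04-fold lower, and Hmga1 fell by 0.59, Mycn by 0.53 and Bcl11a by 0.15. The Bcl11a call was lost with a slide block and on leaving out any 1 of the 5 arrays other than 1-week replicate 2. Of the 11 members tested 7 fell and 3 rose, the latter being Lin28a by 1.18 ± 0.12, Afp by 1.17 ± 0.14 and Arid3a by 0.38 ± 0.12, the last not without 8-week replicate 3. Igf2bp2 differed by -0.38 ± 0.30 and did not pass. The paralogues Lin28a and Lin28b thus moved in opposite directions on these arrays.

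Carriers of insulin-like growth factors went down with Igf2. Igfbp2 had levels of -1.01, -1.60 and -1.08 in the 1-week and -5.42, -5.26 and -5.85 in the 8-week arrays and was at least 10.4-fold lower at 8 weeks. Igfbp3 fell by 2.47 ± 0.29, Igfbp5 by 2.07 ± 0.18, and Pappa, a protease that frees IGF from its carriers, by 1.37 ± 0.20. The growth hormone receptor Ghr fell by 1.80 ± 0.23. Igf1, the main postnatal factor, rose by 0.32 ± 0.09 on the probe used, while a second, dimmer probe moved the other way, by -1.11, and the mean of its probes gave -0.40 (adjusted p = 0.00371). Its receptor Igf1r rose by 0.51 ± 0.09 (0.42 and 0.01 on dimmer probes) and the insulin receptor Insr by 0.45 ± 0.10. In all, 8 of 12 tested members fell and 3 rose.

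Most red cell genes other than the globins fell. Hba-a1 stood at 10.04, 10.08 and 9.85 in the 1-week and 10.03, 9.94 and 9.94 in the 8-week arrays and Hbb-bt at 9.84, 9.86 and 9.56 in the 1-week and 9.75, 9.68 and 9.78 in the 8-week arrays, with differences of -0.02 ± 0.07 and -0.01 ± 0.10. None of the 6 haemoglobin genes tested was called by limma, and none reached an unadjusted p under 0.05 (0 of 6). Signals of Hba-a1 and Hbb-bt were very bright at both ages, and each unirradiated array held 1 or 2 saturated spots. Whether a ceiling of the scan narrowed their age differences was not tested. The embryonic genes Hbb-y and Hbb-bh1 differed by -0.25 ± 0.32 and -0.28 ± 0.18, Hbq1a by 0.14 ± 0.08 and Hbq1b by -0.03 ± 0.07. By contrast 10 of 13 haem synthesis genes fell and none rose. Alad, the second enzyme of the pathway, had levels of 7.97, 7.90 and 7.95 in the 1-week and 6.90, 6.92 and 6.94 in the 8-week arrays and a difference of -1.02 ± 0.08 (adjusted p = 2.39e-08). Its arrays did not overlap between the ages. Urod fell by 0.76 and Fech, which inserts the iron, by 0.60 (-0.19 on a dimmer probe), while Alas2, the erythroid entry enzyme, differed by 0.17 ± 0.08 and did not pass. Among 35 genes of the red cell membrane, iron uptake and erythroid control, 28 fell and 3 rose. The transcription factor Gfi1b had levels of 5.33, 5.26 and 5.50 in the 1-week and 3.98, 3.88 and 3.93 in the 8-week arrays and fell by 1.43 ± 0.12. Gata1, the master regulator of the lineage, fell by 0.99 ± 0.08, the erythropoietin receptor Epor by 0.90 ± 0.10, and the membrane skeleton genes Ank1 and Sptb by 1.05 and 0.88. The iron exporter Slc40a1, also a macrophage gene, rose by 0.43 ± 0.06, Bpgm by 0.49 ± 0.10 and Car1 by 0.36 ± 0.11, the last not without 8-week replicate 1. The list's median of -0.54 was -0.81 and -1.07 between the ages of irradiated mice.

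Genes for copying DNA were lower in the adult throughout. Of 37 replication genes, 36 fell and none rose, with a median of -0.54; the exception, Pold1, differed by -0.15 ± 0.09. Lig1, the ligase that joins Okazaki fragments, had levels of 5.78, 5.71 and 5.68 in the 1-week and 5.07, 4.98 and 5.02 in the 8-week arrays and a difference of -0.70 ± 0.06. E2f1, which drives entry into S phase, fell by 0.60 ± 0.06, the helicase subunit Mcm3 by 0.63 ± 0.07 and the thymidine kinase Tk1 by 0.70 ± 0.07. These are changes of less than 2-fold, yet the arrays of the ages did not overlap for them. Mitosis genes went the same way less evenly, with 20 of 36 falling and none rising. Ccnb1, the mitotic cyclin, fell by 0.62 ± 0.09, Plk1 by 0.38 ± 0.06 and Cdc20 by 0.42 ± 0.06, while the proliferation marker Mki67 (-0.33 ± 0.15) and Top2a (-0.22 ± 0.10) did not pass. Respiratory chain genes fell in 31 of 39 cases, for example Ndufv1 of complex I by 0.64 ± 0.06. Ribosomal protein genes moved little, with a median of -0.15, and 20 of 54 fell, a share close to that of all genes.

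Stem and progenitor genes did not move as a block. Of 28 tested, 13 fell and 6 rose. Ly6a, which encodes the stem cell antigen Sca-1 and responds to interferon, had levels of -3.27, -3.39 and -3.88 in the 1-week and -1.55, -1.48 and -1.52 in the 8-week arrays and rose. The homeobox factor Hoxa9 fell by 1.06 ± 0.14, Procr, the protein C receptor of stem cells, by 0.79 ± 0.10 and Hlf by 0.72 ± 0.11. Cd48 rose by 0.80 ± 0.09, Myb by 0.35 ± 0.06 and Hoxb4 by 1.10 ± 0.26, while Cd34 (0.00 ± 0.08), Gata2 (0.03 ± 0.09) and Lmo2 (-0.07 ± 0.07) did not pass. Platelet and megakaryocyte genes fell more uniformly, 19 of 24, with a median of -1.03. Pf4, a platelet granule chemokine, had levels of 6.19, 5.60 and 6.05 in the 1-week and 4.98, 4.56 and 4.35 in the 8-week arrays and no overlap between the ages. Replicate 2 was the lowest pup for all 24 tested members, so the falls were larger without it (median -1.25). Gp9 and Gp1ba, parts of the von Willebrand factor receptor, fell by 1.31 ± 0.19 and 1.33 ± 0.26, and the integrin Itga2b by 1.03 ± 0.20. Thbs1 fell most, by 2.23 ± 0.17. Nrgn and F5 rose, by 0.82 ± 0.17 and 0.37 ± 0.08. At 24 h after irradiation the median age difference of this list was -0.19.

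Neutrophil and monocyte genes were higher in the adult. In the early granulocyte list 14 of 15 rose and only Igfbp4 fell, by 0.38 ± 0.11. Elane, neutrophil elastase, had levels of 1.91, 1.77 and 1.99 in the 1-week and 3.56, 3.35 and 3.31 in the 8-week arrays and a difference of 1.52 ± 0.13. The growth factor receptor Csf3r rose by 1.29 ± 0.09, the inhibitor Serpinb1a by 1.18 ± 0.05 and the transcription factors Gfi1 and Cebpa by 0.93 ± 0.09 and 1.09 ± 0.11. Among 35 late neutrophil genes 30 rose, and the 4 that fell were the stefin genes Stfa1, Stfa2, Stfa2l1 and Stfa3 described above. Chil3, a chitinase-like secreted protein, had levels of 5.30, 5.32 and 5.14 in the 1-week and 7.59, 7.59 and 7.60 in the 8-week arrays and rose by 2.34 ± 0.08. Clec4e, a lectin that senses mycobacterial lipid, rose by 2.34 ± 0.08, Slfn4 by 2.52 ± 0.13 and Lrg1 by 1.98 ± 0.10. Both ages were tight for these and did not overlap. The alarmin S100a9 (0.12 ± 0.08) was the member that did not pass, while its partner S100a8 rose by 0.79 ± 0.09. Of 22 monocyte genes 17 rose, among them Irf8, the factor that directs monocyte fate, from 3.87, 3.84 and 3.86 to 5.17, 5.18 and 5.15. Ly6c2 rose by 1.46 ± 0.09, F13a1 by 1.73 ± 0.11 and the chemokine receptor Ccr2 by 1.30 ± 0.13. The shares of 30 in 35 and 17 in 22 compare with 24.4% of all genes.

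Resident macrophage genes were split. Cd163, the scavenger receptor for haemoglobin bound to haptoglobin, had levels of -2.34, -2.26 and -2.17 in the 1-week and 1.20, 0.89 and 0.88 in the 8-week arrays and rose by 3.25 ± 0.15 (adjusted p = 4.98e-11). Cd5l, a protein that macrophages secrete, had levels of -0.37, -0.12 and -0.16 in the 1-week and 3.04, 2.82 and 2.74 in the 8-week arrays and rose by 3.09 ± 0.17. Hmox1, which degrades haem, rose by 1.10 ± 0.09, Fcna by 1.46 ± 0.11 and Timd4, a receptor for dying cells, by 0.79 ± 0.11. In all 17 of 25 rose. The 4 that fell were Stab1 by 2.01, Marco by 1.21, Stab2 by 0.83 and Hpgd by 0.35; Stab1 and Stab2 are also genes of sinusoidal endothelium. Between the ages of irradiated mice Marco was higher in the adult, by 0.71 at 6 h and 0.88 at 24 h, and the test of the change in the age difference gave adjusted p = 1.69e-05 and 1.71e-06.

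Mast cell and basophil genes moved in both directions. Mcpt4, a chymase of connective tissue mast cells, had levels of -0.71, -1.01 and -0.94 in the 1-week and -6.52, -6.69 and -6.65 in the 8-week arrays and was at least 13.1-fold lower in the adult. Cma1, another mast cell chymase, fell by 2.11 ± 0.13. Fcer1a, the alpha chain of the IgE receptor of mast cells and basophils, went the other way, from -4.00, -3.88 and -4.29 to -0.26, -0.13 and -0.25, a difference of 3.84 ± 0.13, with 2 of the 3 pups above background. The basophil proteases Prss34 and Mcpt8 rose by 2.34 ± 0.12 and 1.46 ± 0.11, histidine decarboxylase Hdc by 1.74 ± 0.10 and the eosinophil receptor Ccr3 by 1.65 ± 0.12. Epx, eosinophil peroxidase, fell by 0.72 ± 0.11, and Prg2, the major basic protein of eosinophils, differed by 0.02 ± 0.08. Of 23 genes 14 rose and 3 fell.

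The largest rise among genes above background at both ages was that of a plasma cell gene. Jchain, the chain that links antibodies into polymers, had levels of -2.03, -2.00 and -2.10 in the 1-week and 4.35, 4.11 and 4.24 in the 8-week arrays. The difference was 6.28 ± 0.11 (77.5-fold, adjusted p = 6.62e-16), 6.30 without 1-week replicate 2, and 5.85 and 5.69 between the ages at 6 h and 24 h. Tnfrsf17, the survival receptor of plasma cells, was not above background in any pup, at -6.21, -6.20 and -5.86, and lay at -2.65, -2.40 and -2.66 in the adults, at least 3.52-fold higher. Sdc1, the syndecan used to identify plasma cells, rose by 1.01 ± 0.09, the secretory factors Derl3 and Xbp1 by 1.90 ± 0.13 and 0.61 ± 0.06, and Irf4 by 0.93 ± 0.12. Fkbp11 and Mzb1, which serve antibody folding, fell by 1.16 ± 0.10 and 0.37 ± 0.07. Prdm1, the factor that drives plasma cell differentiation, differed by -0.20 ± 0.16 and did not pass. The list held 8 rises and 2 falls in 13 genes.

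All 21 called members of the mature B-cell list rose, of 23 tested. Fcer2a (CD23), a marker of follicular B cells, was not above background in any pup, at -5.12, -5.12 and -5.09, against -1.84, -1.58 and -1.77 in adults, at least 6.3-fold higher. Ms4a1 (CD20) had levels of 2.48, 2.39 and 2.19 in the 1-week and 4.34, 4.35 and 4.30 in the 8-week arrays and rose by 1.98 ± 0.11. Fcmr, the receptor for IgM, rose by 2.44 ± 0.11, Cd72 by 2.05 ± 0.11, Cd22 by 1.37 ± 0.20 and Cr2, the complement receptor of mature B cells, at least 2.52-fold. The B-cell precursor list moved less, with a median of 0.43 against 1.20, and 12 of 20 rose. Myl4 rose by 1.05 ± 0.11, the interleukin 7 receptor Il7r by 0.76 ± 0.10 and Vpreb3 by 0.64 ± 0.08. The surrogate light chains of the pre-B receptor fell: Vpreb1 had levels of 7.26, 7.02 and 6.97 in the 1-week and 6.20, 6.39 and 6.35 in the 8-week arrays, and Vpreb2 differed by -0.91 ± 0.13. Rag1, which cuts antigen receptor genes, rose by 0.51 ± 0.10, and Dntt, which adds untemplated bases at their joints, differed by 0.20 ± 0.10 and did not pass. Arpp21 fell by 0.50 ± 0.15, and Lef1 (-0.32 ± 0.13) did not pass without 1-week replicate 2. The near-identical Vpreb1 and Vpreb2 may share probe signal.

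Antigen presentation by MHC class II was higher in the adult. Of 20 class II and dendritic genes 16 rose and none fell, with a median of 1.43. Cd74, the invariant chain, had levels of 1.84, 2.01 and 1.75 in the 1-week and 3.91, 3.95 and 4.18 in the 8-week arrays and rose by 2.15 ± 0.09. H2-Ab1 and H2-Aa, the chains of the class II molecule, rose by 2.02 ± 0.11 and 1.96 ± 0.14, and Ciita, the coactivator that class II genes need, by 2.30 ± 0.16. H2-DMa and H2-DMb1, which load peptide, rose by 1.55 ± 0.11 and 1.61 ± 0.11, and Siglech, a marker of plasmacytoid dendritic cells, by 2.54 ± 0.24. The adults lay above every pup for each. H2-DMb2, which resembles H2-DMb1, differed by 1.40 ± 0.66 and did not pass with all arrays (adjusted p = 0.0727), but did without 1-week replicate 2 (0.00466) and with a replicate block (0.0389). The costimulators Cd80 (-0.11 ± 0.20) and Cd86 (0.20 ± 0.12) did not pass. Of 19 class I genes 11 rose, with a median of 0.49, for example B2m by 0.86 ± 0.08 and H2-K1 by 1.04 ± 0.12; class I loci are similar in sequence, so single loci are uncertain.

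Class II promoters are shown because the genes rose together. Capitals mark TGATTGG, the core of the Y box bound by NF-Y, searched on both strands in the 150 bases before the start site (GRCm38.p6, gene strand).
H2-Aa, chr17:34287824-34287973 (minus strand): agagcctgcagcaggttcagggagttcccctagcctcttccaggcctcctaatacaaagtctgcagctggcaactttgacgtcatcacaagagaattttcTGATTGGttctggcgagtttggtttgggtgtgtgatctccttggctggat
H2-DMb1, chr17:34153041-34153190 (plus strand): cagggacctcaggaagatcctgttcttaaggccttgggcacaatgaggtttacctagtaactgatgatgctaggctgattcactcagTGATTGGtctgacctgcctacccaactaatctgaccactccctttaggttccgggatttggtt
H2-Oa, chr17:34092229-34092378 (plus strand): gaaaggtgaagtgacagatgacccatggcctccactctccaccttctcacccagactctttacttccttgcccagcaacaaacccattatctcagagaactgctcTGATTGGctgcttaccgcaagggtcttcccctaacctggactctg
H2-Ob, chr17:34238755-34238904 (plus strand): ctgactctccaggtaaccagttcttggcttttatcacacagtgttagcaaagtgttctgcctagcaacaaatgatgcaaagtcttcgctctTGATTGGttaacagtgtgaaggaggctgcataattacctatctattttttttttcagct
H2-Oa and H2-Ob, the modulators of peptide loading, rose by 0.84 ± 0.09 and 1.34 ± 0.20. Of 9 class II genes looked up, 6 had a promoter in the RefSeq table and 5 hold the letters, as do 5.71% of all 32851 windows. H2-DMa, which rose, does not hold them in this window, and H2-DMb2, which did not pass with all arrays, does. A match of letters is a description and not a bound site.

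NK genes and most of the T-cell genes tested were higher in the adult, several from a level below detection in pups. Of 24 NK and cytotoxic genes 21 rose and none fell, with a median of 1.44. Klra7, an NK receptor of the Ly49 family for class I molecules, had levels of -5.05, -4.44 and -4.25 in the 1-week and -0.39, -0.24 and -0.43 in the 8-week arrays and rose by 4.23 ± 0.21, 1 of 3 pups being above background. Klra16 of the same family, whose members are similar in sequence, rose by 3.41 ± 0.17. Klra3 and Klra8, above background in no pup, were at least 1.9-fold and at least 3.8-fold higher. Ccl5, a chemokine of cytotoxic cells, had levels of 0.81, 0.97 and 0.90 in the 1-week and 3.29, 3.44 and 3.58 in the 8-week arrays and rose by 2.54 ± 0.09. The pore protein Prf1 rose by 2.27 ± 0.21, the factor Tbx21 by 1.40 ± 0.12, Ncr1, which defines NK cells, by 1.14 ± 0.15, and granzyme Gzma by 0.71 ± 0.13. Granzyme Gzmb (0.46 ± 0.19) did not pass without 1-week replicate 2. Of 32 T-cell genes listed only 20 were tested, of which 13 rose and 2 fell. Among those not tested, Cd4, Cd28 and Foxp3 were above background on none of the 6 unirradiated arrays. Il2rb rose by 1.76 ± 0.10, the kinase Zap70 by 1.36 ± 0.13, and Cd8a, above background in no pup, was at least 2.65-fold higher. The signalling chain Cd247 rose by 1.87 ± 0.14 on the probe used, while a dimmer probe differed by -1.10, and the mean of its probes gave 0.38 (adjusted p = 0.276), which did not pass. The 3 chains of the CD3 complex did not move together. Cd3e rose by 1.01 ± 0.36, Cd3g fell by 0.36 ± 0.10, and Cd3d differed by 0.17 ± 0.13 and did not pass. The Cd3e rise came through 8-week replicate 3 above all, and its call was lost without that array or without 1-week replicate 1 or 3. It was also lost with a slide block and with a fit to the 6 unirradiated arrays alone. The adaptor Lat, also present in platelets and mast cells, fell by 0.72 ± 0.14.

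Interferon-responsive genes stood higher in unirradiated adult marrow. Of 31 tested 23 rose and none fell, with a median of 0.80 (0.67 without 1-week replicate 2, the lowest pup for 23 of the 31). Oasl2 had levels of 0.60, 0.13 and 0.13 in the 1-week and 1.92, 1.93 and 2.18 in the 8-week arrays and rose by 1.72 ± 0.13. Ifit3, which binds foreign RNA, had levels of -1.03, -1.85 and -1.22 in the 1-week and 0.34, 0.33 and 0.89 in the 8-week arrays and rose by 1.89 ± 0.19. Ifi27l2a rose by 1.25 ± 0.14, Bst2, the tether that holds budding virus, by 1.46 ± 0.15 and the RNA sensor Ddx58 by 1.22 ± 0.14. Ifi44 (0.44 ± 0.21), Rsad2 (-0.05 ± 0.10) and Ifit2 (0.12 ± 0.12) did not pass. Between the ages of irradiated mice the list's median was 1.30 at 6 h and 1.89 at 24 h. In the joint list of guanylate-binding proteins and immunity-related GTPases 9 of 15 rose, for example Gbp2b by 1.26 ± 0.16. The GTPases Iigp1 (0.01 ± 0.23) and Irgm1 (0.08 ± 0.11) did not pass. Pathogen sensors rose in 12 of 16 cases: Tlr2 by 0.98 ± 0.08, Tlr4 by 1.10 ± 0.10 and Tlr7 by 1.14 ± 0.09. Mice of C3H substrains can differ at Tlr4, and the labels name the strain only as C3H. Of 19 complement genes 13 rose and 5 fell. C3, the central component, rose from 5.95, 5.89 and 5.66 to 7.12, 7.09 and 7.17, while C2 and Cfb fell by 1.82 and 1.11.

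Chemokine receptors rose in 14 of 18 cases, and the 3 that fell were the atypical receptors Ackr2, Ackr3 and Ackr4, which take up chemokine without signalling for migration. Ackr2 had levels of -1.03, -1.22 and -0.91 in the 1-week and -1.90, -3.42 and -3.34 in the 8-week arrays, and Ackr3 fell by 1.08. Ackr4, above background in 2 pups and no adult, was at least 1.17-fold lower. Cxcr2 of neutrophils rose by 1.30 ± 0.13, Cxcr3 of T and NK cells by 1.17 ± 0.09, Ccr6 of B cells by 1.95 ± 0.15 and Cxcr4, the receptor that retains stem cells and neutrophils in marrow, by 0.45 ± 0.09. Ligands were mixed, with 8 of 22 rising and 6 falling. Ccl9 and Ccl6 of myeloid cells rose by 1.67 ± 0.08 and 1.08 ± 0.09, and the interferon-induced Cxcl9 and Cxcl10 by 2.44 ± 0.36 and 1.02 ± 0.19, with 1 of 3 pups above background for Cxcl9. Cxcl12, the stromal ligand of Cxcr4, had levels of 4.86, 4.48 and 4.86 in the 1-week and 4.15, 3.67 and 3.75 in the 8-week arrays and fell by 0.88 ± 0.16, so ligand and receptor moved in opposite directions. Its age difference was 0.00 at 6 h and 0.19 at 24 h. Other niche factors fell with it, 13 of 20 in all. Kitl, stem cell factor, fell by 1.20 ± 0.16, pleiotrophin Ptn by 3.12 ± 0.19, and Ebf3, a factor of the stromal cells that make Cxcl12, by 1.56 ± 0.15. Foxc1, another factor of those cells, fell by 2.56 ± 0.17. Vcam1 and Igf1 (with the probe disagreement given above), both also macrophage genes, rose by 0.73 ± 0.11 and 0.32 ± 0.09, and Flt3l (-0.10 ± 0.09), Thpo (0.12 ± 0.12) and Csf1 (0.08 ± 0.08) did not pass.

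Connective tissue, bone and vessel genes were lower in the adult. Of 28 stromal genes 25 fell, with a median of -2.45 (-2.28 without 1-week replicate 2). Fstl1, a secreted glycoprotein, had levels of 2.78, 2.69 and 2.72 in the 1-week and -0.15, -0.29 and -0.37 in the 8-week arrays and fell. Col1a1, the main collagen of bone and fibrous tissue, had levels of 7.12, 6.57 and 7.06 in the 1-week and 2.89, 3.15 and 3.76 in the 8-week arrays and fell by 3.65 ± 0.21. Pdgfrb, a receptor of perivascular cells, fell by 2.21 ± 0.14, and Pdgfra, above background in no adult, was at least 4.18-fold lower. Replicate 2 was the highest pup for 15 of the 28 and the lowest for 10, Col1a1 and Pdgfrb among the latter. Thy1, also a T-cell gene, rose by 1.06 ± 0.09. Col14a1, a fibril-associated collagen, rose by 0.89 ± 0.29, but 1-week replicate 2 overlapped the adults, and without 1-week replicate 1 or 3 the call was lost. A slide block and a fit to the 6 unirradiated arrays alone also ended the Col14a1 call. Bone matrix genes fell in 19 of 23 cases, with a median of -2.49. Osteopontin Spp1 had levels of 3.93, 3.65 and 4.13 in the 1-week and 1.06, 1.16 and 1.07 in the 8-week arrays, bone sialoprotein Ibsp fell by 2.33 ± 0.17 and osteocalcin Bglap by 1.56 ± 0.31. Sp7, the osteoblast factor, and Dmp1, an osteocyte matrix protein, were above background in no adult and at least 6.08-fold and at least 20.5-fold lower. Cthrc1, secreted by matrix-forming cells, was at least 8.39-fold lower. Runx2, which osteoblasts share with blood cells, rose by 1.22 ± 0.19.

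Of 17 osteoclast genes 8 fell and 3 rose. Ctsk, the collagen-degrading cathepsin, had levels of 1.56, 0.53 and 1.60 in the 1-week and -2.47, -2.33 and -2.49 in the 8-week arrays and fell by 3.66 ± 0.25, Acp5 by 1.24 ± 0.11 and the matrix metalloproteinase Mmp14, also stromal, by 2.71 ± 0.11. Nfatc1, Jdp2 and Mmp9, which other marrow cells also express, rose by 0.84 ± 0.11, 0.61 ± 0.06 and 0.72 ± 0.10, Nfatc1 by only 0.21 on a dimmer probe. Endothelial genes fell in 24 of 27 cases. VE-cadherin Cdh5 had levels of 0.37, 0.14 and 0.28 in the 1-week and -1.78, -1.82 and -1.72 in the 8-week arrays and fell by 2.04 ± 0.13, the sinusoid marker Emcn by 1.60 ± 0.13 and the receptor Kdr by 1.65 ± 0.15. Icam2, also on leukocytes, rose by 0.55 ± 0.06, and Pecam1 (0.22 ± 0.09), likewise shared with leukocytes, did not pass without 1-week replicate 2. Adipocyte genes were mixed, 6 of 17 rising and 4 falling. Lpl and Fabp4, also endothelial or macrophage genes, fell by 0.97 ± 0.07 and 1.16 ± 0.12, while the fat-cell hormone gene Adipoq (-0.09 ± 0.20) did not pass.

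Cartilage and muscle genes were lower in adults to an extent that 1-week replicate 2 sets. For cartilage the median of 8 genes was -3.87 with all arrays and -1.85 without it, and 7 fell both ways. Col11a2, a fibrillar collagen of cartilage, had levels of 1.56, 3.71 and 1.27 in the 1-week and -1.41, -1.44 and -0.93 in the 8-week arrays, and a dimmer probe of it differed by -0.81. Sox9, the chondrocyte factor, was at least 5.24-fold lower in adults and at least 2.55-fold without replicate 2. Col9a1, a cartilage collagen, was at least 9.66-fold lower and at least 2.02-fold without it. Replicate 2 lay above the other pups for all 8 cartilage genes, and the other pups lay above the adults for Col11a2, Sox9 and Col9a1. Replicate 2 was likewise the highest pup for all 24 muscle genes tested, of which 16 had adjusted p under 0.05 with all arrays and 4 also without replicate 2, and the median moved from -2.96 to -1.09. All 24 were lower at 8 weeks with all arrays, but without replicate 2 a call of 1 gene was higher at 8 weeks. Myl1, a fast muscle light chain, had levels of -1.03, 6.82 and 0.74 in the 1-week and -4.29, -6.89 and 0.02 in the 8-week arrays, so an adult array lay above a pup. Sln, an inhibitor of the muscle calcium pump, had levels of -3.97, 4.11 and -0.24 in the 1-week and -6.72, -6.92 and -6.83 in the 8-week arrays and was at least 23.8-fold lower, or at least 5.65-fold without replicate 2. With the authors' deposited log2 values Sln did not pass under an intensity trend (adjusted p = 0.927) and passed without one (0.000832). Adult replicate 3, with a muscle mean of -0.91, lay between 1-week replicates 1 and 3. Stromal and osteoblast means were, like muscle, highest in replicate 3 among the adults, at -1.90, -2.04 and -1.80 and -3.17, -3.13 and -2.85, and in replicate 2 among the pups, at 0.19, 0.48 and 0.06 and -0.63, -0.25 and -0.66. Whether more bone-lined tissue came out with pup marrow was not tested. Between the ages of irradiated mice the stromal median was -0.86 at 6 h and -0.71 at 24 h, and the osteoblast median -1.59 and -1.14.

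**Figure D3:**
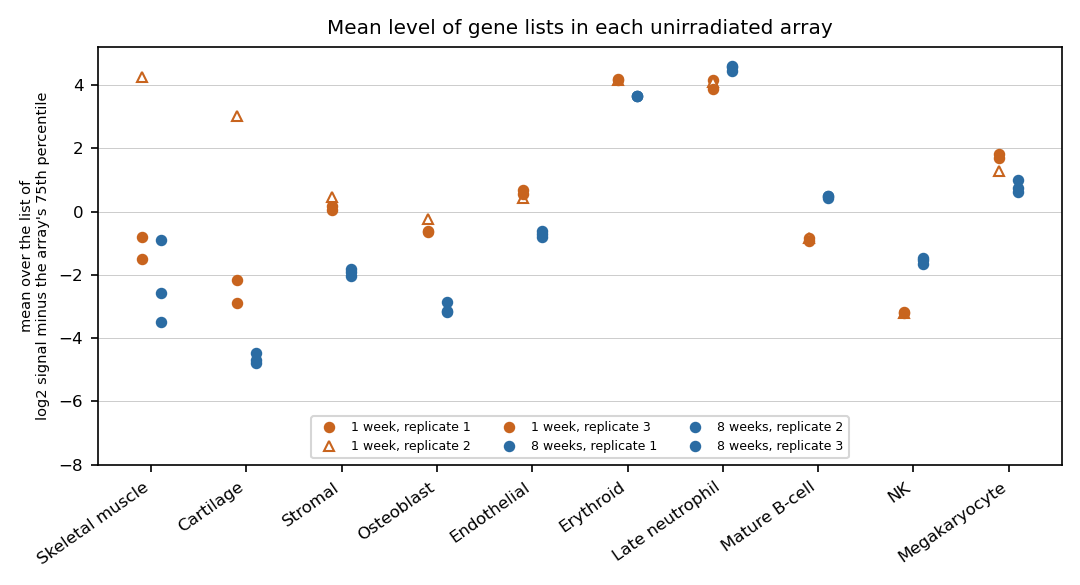
Mean level of 10 gene lists in each of the 6 unirradiated arrays (mean over the tested members of log2 signal minus the array's 75th percentile), with open triangles for 1-week replicate 2. Replicate 2 stands far above the other pups for muscle and cartilage, below them for the megakaryocyte list and close to them for the rest. In every list but muscle the ages separate.

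Of 25 heat shock and immediate early genes 11 rose and 1 fell. The inducible Hsp70 genes Hspa1a and Hspa1b, which refold damaged protein, had levels of 4.10, 4.67 and 3.78 in the 1-week and 7.50, 7.37 and 7.40 in the 8-week arrays and of 1.13, 1.74 and 0.68 in the 1-week and 4.82, 4.58 and 4.84 in the 8-week arrays. They rose by 3.24 ± 0.18 and 3.56 ± 0.23. Between the ages of irradiated mice they differed by 4.27 and 4.47 at 6 h, and the test of the change gave adjusted p = 0.0114 and 0.0657. Hsph1, their co-chaperone, rose by 1.69 ± 0.13, and Hsp90aa1 by 0.43 ± 0.08, while Hspa8 (0.14 ± 0.08) and Dnajb1 (0.08 ± 0.06) did not pass. The immediate early genes Fos (0.23 ± 0.26), Egr1 (0.17 ± 0.13) and Junb (0.10 ± 0.07) did not pass, Klf6 rose by 1.00 ± 0.08 and Ier3 fell by 1.48 ± 0.13. The Hsp70 promoters are shown with GAANNTTC, a pair of heat shock element units, in capitals (both strands searched, GRCm38.p6, gene strand).
Hspa1a, chr17:34972157-34972306 (minus strand): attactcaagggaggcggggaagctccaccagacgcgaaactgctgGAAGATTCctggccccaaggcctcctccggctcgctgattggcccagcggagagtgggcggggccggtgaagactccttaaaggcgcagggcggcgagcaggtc
Hspa1b, chr17:34959239-34959388 (minus strand): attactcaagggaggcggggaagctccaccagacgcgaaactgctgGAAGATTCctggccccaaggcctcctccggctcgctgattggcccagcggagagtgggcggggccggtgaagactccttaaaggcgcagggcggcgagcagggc
They are 99.3% identical, each holds 1 match, counted once because the pattern is its own reverse complement, and 3.95% of all windows hold one. Transcripts of the 2 genes are near-identical too, so their probes cannot be taken as independent. In the list of growth hormone, thyroid and steroid responsive genes 8 of 15 rose and 6 fell. Tsc22d3, a gene that glucocorticoids induce, had levels of 1.72, 1.75 and 1.51 in the 1-week and 3.38, 3.21 and 3.09 in the 8-week arrays and rose by 1.57 ± 0.09, Fkbp5 by 1.33 ± 0.18, Klf9 by 1.59 ± 0.24 (2 of 3 pups above background) and the receptor Nr3c1 by 0.94 ± 0.08. Dimmer probes differed by less, 0.57 and 0.29 for Fkbp5 and 0.12 for Klf9. The metallothioneins Mt1 and Mt2 fell by 1.35 ± 0.09 and 1.86 ± 0.13. Dio2, which activates thyroid hormone, rose by 1.68 ± 0.09, and the thyroid receptors Thra and Thrb fell by 0.29 and 1.08. Clock genes rose in 9 of 16 cases, among them Dbp by 0.64 ± 0.06, Arntl by 0.98 ± 0.10 and Per1 by 1.07 ± 0.18, while Cry2 and Hlf fell. The labels give no time of day for the sampling, so clock time and age cannot be told apart here.

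Genes of the damage response changed in shares near the 59.8% of all genes that rose or fell. Among 30 p53 targets 9 rose and 8 fell, with a median of -0.06. Fas, the death receptor, had levels of -0.16, -0.28 and -0.29 in the 1-week and 1.19, 1.25 and 1.19 in the 8-week arrays and rose by 1.45 ± 0.07, Xpc by 0.89 ± 0.06 and Trp53inp1 by 0.98 ± 0.09. Bax, which opens mitochondria in apoptosis, fell by 0.43 ± 0.09, Phlda3 by 0.61 ± 0.07 and the cell-cycle inhibitor Cdkn1a by 0.62 ± 0.16. With the authors' deposited log2 values Phlda3 and Cdkn1a did not pass under an intensity trend (adjusted p = 0.277 and 0.163) and passed without one (9.10e-06 and 0.0056). Mdm2, the brake on p53, rose by 0.42 ± 0.09, and Ccng1 (-0.18 ± 0.08) and Bbc3 (0.02 ± 0.08) did not pass. In the repair list the end-joining genes Lig4, Dclre1c and Polm rose by 0.95 ± 0.08, 0.95 ± 0.09 and 0.89 ± 0.09, Dclre1c by 0.23 on a dimmer probe, while Xrcc5 of the Ku dimer fell by 0.73 ± 0.09. The helicase Blm fell by 0.64 ± 0.11. In total 5 of 30 repair genes rose and 13 fell. Among cholesterol genes 4 of 24 rose and 9 fell. Lists for tissues that marrow should lack held few tested genes: 4 for liver, with 2 rises, 9 for nerve and glia, with 2 rises and 4 falls, and 3 for epidermis, with 2 falls.

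Several of the largest changes belong to none of these lists. Pla2g2d, a secreted phospholipase, was above background in no pup, at -5.29, -5.48 and -5.26, and lay at -0.04, 0.05 and -0.34 in adults, at least 19.4-fold higher. Degs2, a sphingolipid hydroxylase, had levels of -5.25, -5.40 and -5.28 in the 1-week and -1.58, -1.54 and -1.40 in the 8-week arrays and was at least 7.36-fold higher. Akr1b7, an aldo-keto reductase, was at least 3.1-fold higher, a call that the deposited values lost under an intensity trend (adjusted p = 0.11) and kept without one (0.000132). For these 3 genes the pups give only the detection floor. Chst10, a sulphotransferase, rose from -4.06, -3.58 and -3.95 to -0.15, -0.54 and -0.66 and the tissue kallikrein Klk1b27 from -4.14, -3.82 and -3.54 to -0.54, -0.51 and -0.54, with 2 of 3 pups above background for each. Msln, mesothelin, fell from -1.37, -2.98 and -1.56 to -6.56, -6.98 and -6.86 and was at least 6.19-fold lower, replicate 2 being the lowest pup.

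**Figure D4:**
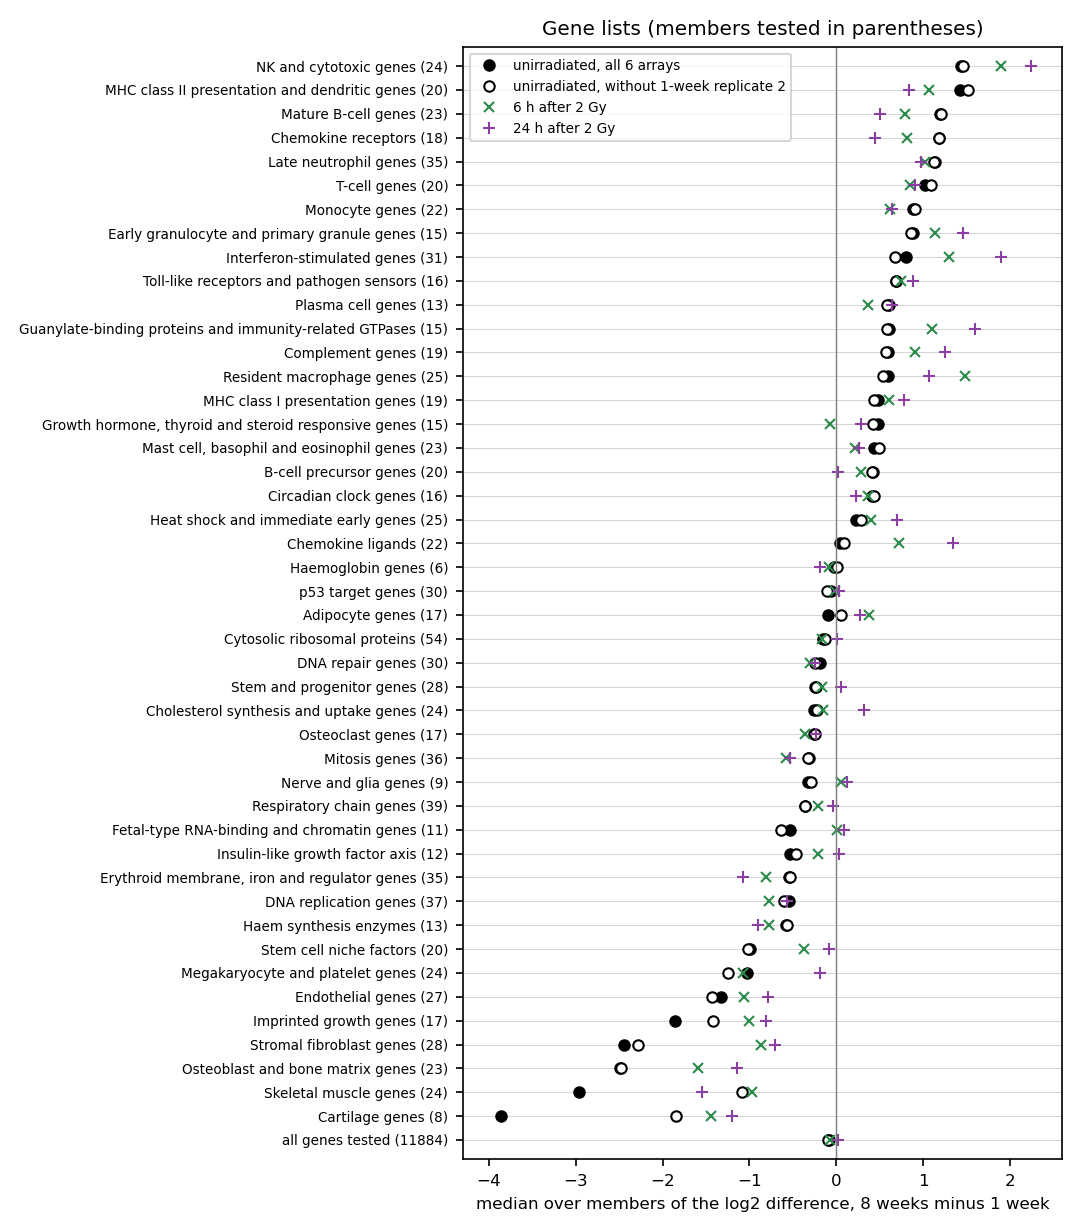
Median over the tested members of the log2 difference between 8 and 1 weeks for each gene list with at least 5 members tested and for all genes, in unirradiated mice (filled circles), without 1-week replicate 2 (open circles), and in other mice 6 h (crosses) and 24 h (plus signs) after 2 Gy. Medians run from -3.87 for cartilage to 1.44 for NK and cytotoxic genes, and leaving out replicate 2 moves the muscle and cartilage medians most.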

How the data were processed

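Each array's probe intensity was deposited as background-subtracted signal of Agilent Feature Extraction, version 9.5.1.1 per the file headers and 11.5.1 per the submitters' processing notes. The authors also deposited a table of log2 values of the same arrays, which served as an alternative.

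Signals were taken to log2, scaled to each array's 75th percentile over non-control probes, and averaged over spots of a probe. Of 41174 probes 24844 were named through RefSeq accessions (GRCm38.p6), giving 17178 genes, each with its brightest probe; 11884 were well above background in a group and tested. limma 3.58.1 in R 4.3.3 was fitted to all 18 arrays with an intensity trend and Benjamini-Hochberg adjustment, after checks on simulated data. With 1 mouse per array and 3 per group, the number of arrays limits precision.

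The text names the 15 largest changes each way (called both ways, no overlap, no clone names or receptor segments), the 8 list members with the smallest adjusted p, those against a list's majority, and members not called, except some genes not reported here; imprinted, fetal-type and haemoglobin members were all open. Named outside this rule, after their values were seen, were the stefin genes Csta1, Cstdc3 and Cstdc4, the genes beside that block, and Bglap, Cd22, Cd3e, Cr2, Cxcr4, Gzma, Gzmb, H2-Oa, H2-Ob, Kdr, Klf9, Klra8, Mdm2, Ncr1, Pdgfra, Rag1 and S100a8. The gene lists and the comparison were chosen with earlier results of these data known, and promoter runs after seeing sequences. Alternatives covered background, scaling, filters, probes, slide, replicate block and left-out arrays.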

Additional observations from a re-analysis of the deposited data

Results flagged for a closer look

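The age difference itself differed with irradiation. By the interaction term of the limma fit, 2210 of 11884 genes had an age difference 6 h after 2 Gy that differed from the one in unirradiated marrow. At 24 h 5001 genes did so. Both interactions use the unirradiated arrays, so they share those 6 arrays with each other and with the age comparison. Of the 30 genes with the largest changes in unirradiated marrow, 17 had an interaction with adjusted p under 0.05 at 6 h and 21 at 24 h. It was at least 2-fold for 11 and 16 of them, a share not counted over all genes. The 30 were picked by the unirradiated difference that the interaction subtracts. That choice favours narrower gaps, so the counts are not a result about irradiation.

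Values are the age difference after irradiation minus the unirradiated one, on the log2 scale. Among genes higher in adults, a positive value means a wider gap between the ages. At 6 h it was 2.05 for Cd5l, 1.17 for Degs2 and 1.03 for Hspa1a, and the gap was narrower by the values of -1.38 for Chst10, -1.57 for Fcer2a, -1.08 for Klra16 and -1.91 for Pla2g2d. Among genes lower in adults, a positive value means a narrower gap, and it was 2.91 for Igf2, 2.26 for Lin28b, 1.09 for Mcpt4 and 1.73 for Msln.

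At 24 h the gap was wider for Cd5l by 1.29, for Degs2 by 1.86, for Hspa1a by 1.11, for Hspa1b by 1.26 and for Tnfrsf17 by 1.04. It was narrower among genes higher in adults for Chst10 (-2.21), Fcer2a (-1.99), Klk1b27 (-1.70), Klra16 (-1.20) and Pla2g2d (-1.50). Among genes lower in adults the gap was narrower by 1.09 for Csta2, 1.36 for Cstdc5, 1.26 for Stfa1, 2.54 for Igf2, 1.93 for Lin28b and 3.40 for Sox9. Where a gene was below background at an age, as Igf2, Lin28b, Mcpt4, Msln and Sox9 in unirradiated adults and Degs2, Fcer2a, Pla2g2d and Tnfrsf17 in unirradiated pups, its value rests on a level that was not measured. Sox9 also carries the cartilage transcript of 1-week replicate 2. Igf2 too was highest on that array, and its unirradiated difference moved from -8.90 to -7.83 without it. The cause of these differences was not tested.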

How the results depend on the processing

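The count of 7711 genes stayed between 7425 and 8311 under the other scalings, filters, probe rules, variance models, slide block, deposited values and a fit to the 6 arrays alone. With normexp on median signals, which takes in 1 irradiated array with very high local backgrounds, it was 2804, with 1333 higher and 1471 lower at 8 weeks, and 2118 without 1-week replicate 2. The same correction gave 2939 genes at 6 h, 1421 higher and 1518 lower, and 3412 at 24 h, 1478 higher and 1934 lower. With outlying backgrounds set to the array's median, an alternative chosen after seeing the data, the unirradiated count was 7188. Leaving out 1 array at a time gave 7187 to 7390. The share of called genes that were higher at 8 weeks ran from 39% to 47.5% over all settings.

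The replicate numbers did not pair the arrays (residual correlations 0.009, -0.203 and -0.167), and a replicate block gave 7699 genes. A slide block gave 7496. In the deposited values each probe is centred, so the intensity trend there runs on means that are no intensity: Sln, Phlda3, Cdkn1a, Akr1b7 and Lef1 lost their calls. Fitted without the trend, an alternative chosen after seeing the data, those values gave 7703 genes, and 0 of the called genes named here lost their call. Averaging probes turned Igf1 from 0.32 to -0.40 and was the only setting to reverse a gene named here. Of 258 called genes named here, the first normexp setting lost the call of 65, and the remaining settings lost that of 0 to 6 each. Signal over background limits the level of the dim age for genes given as bounds.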
